A study of Rattus norvegicus with 4 samples.

Results

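Enzymes that chemically modify drugs and other foreign compounds were examined in 4 samples of the glomerular transcriptome of male Wistar rats. The set holds the 80 protein-coding genes whose symbols place them in 6 families, out of 13261 genes used. It comprised 29 cytochrome P450 genes (Cyp), 17 glutathione S-transferases (Gst), 3 UDP-glycosyltransferases (Ugt), 5 sulfotransferases (Sult), 14 aldehyde dehydrogenases (Aldh) and 12 aldo-keto reductases (Akr). The rats had received an intravenous injection of Adriamycin (ADR, doxorubicin), an anthracycline that injures podocytes, and the samples form 1 group. The samples are called animals below, but the labels do not state that each came from a different rat, and p-values measure the spread between these samples, which may be technical. Glomeruli were obtained by sieving, and polyadenylated RNA was sequenced. Control animals were not analysed here, so levels below carry no direction of change with ADR. Animals are not assigned to a harvest day or a batch in the labels, although more than one harvest day is mentioned.

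Drug metabolism proceeds in phases. Cyp enzymes, with electrons from the reductase Por, and the Aldh and Akr enzymes oxidise or reduce a compound. Gst, Ugt and Sult enzymes then attach glutathione, a sugar acid or sulfate, which makes the product easier to excrete. In the kidney many of these enzymes are known from the proximal tubule, the segment that takes up and secretes organic compounds, whereas the pi-class Gst and several Aldh and Akr enzymes are made in many cell types. Sieved glomeruli can carry tubular fragments, so each enzyme's values were set beside those of proximal tubule markers.

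The 4 libraries, called replicates 1 to 4 in accession order, held 13566962, 16207027, 15348629 and 15244063 reads. Mitochondrially encoded protein-coding genes took from 7.46% of reads in replicate 1 to 12.5% in replicate 2. The 20 proximal tubule markers used as reference, none of them an enzyme of the set, summed to 8001, 6071, 3987 and 6336 CPM (reads scaled to the same total in each library) in replicates 1 to 4. Replicate 1 was thus highest and replicate 3 lowest in tubular RNA, and replicates 2 and 4 lay close together. The mean of the markers' log2 values, each centred on its own mean over animals, was 0.42, 0.09, -0.62 and 0.11, which is called the proximal tubule profile. In bulk tissue, fewer cells of a type and less RNA per cell cannot be told apart. The 12 podocyte markers gave another profile, at 0.54, -0.69, -0.12 and 0.28, low in replicate 2. They summed to 12147, 6614, 8824 and 10779 CPM, so the defining podocyte genes were present in each library. The profiles of the other cell types spanned less. The range between animals was 0.37 for 9 endothelial, 0.40 for 9 mesangial, 0.46 for 10 immune and 0.04 for 10 distal nephron markers. The small range of the distal nephron mean hides markers that went opposite ways. Aqp2, the water channel of the collecting duct, had 24.1, 59.4, 46.2 and 33.9 CPM, lowest in replicate 1. Umod, made in the thick ascending limb, had 429, 236, 346 and 320 CPM, highest in replicate 1, and Aqp3 differed by 1.99-fold. Distal nephron content was therefore not shown to be even, and its part in the results was not tested. Immune and mesangial markers also went different ways. Ptprc was highest in replicate 3, at 108 CPM, where C1qa was lowest, at 48.0 CPM. Itga8 was lowest in replicate 2, at 182 CPM, where Acta2 was highest, at 103 CPM.

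Together the 80 enzyme genes took 0.685%, 0.626%, 0.44% and 0.507% of reads in replicates 1 to 4, a mean of 0.564% ± 0.111 (SD, n = 4). Replicate 3, lowest in tubular markers, was also lowest for the enzymes. Cyp genes took 0.249%, 0.250%, 0.138% and 0.164% of reads, Aldh genes 0.179%, 0.150%, 0.111% and 0.133%. Akr genes took 0.125%, 0.113%, 0.101% and 0.104%, and Gst genes 0.0868%, 0.082%, 0.068% and 0.0732%. Sult genes took 0.0253%, 0.0203%, 0.0116% and 0.0152%, and Ugt genes 0.0196%, 0.0112%, 0.0102% and 0.0173%. In each of the 6 families the lowest share was that of replicate 3. The ratio of the highest to the lowest animal was 2.17 for Sult, 1.92 for Ugt, 1.81 for Cyp and 1.61 for Aldh, against 1.28 for Gst and 1.24 for Akr. The widest 95% Wilson interval of any of these shares spanned 0.00878 percentage points, which covers counting error only. Single genes weighed heavily in some sums: Sult1c2a gave 67.7% of Sult reads, Akr1a1 64.4% of Akr reads and Cyp4a2 35.2% of Cyp reads. The mean of the centred log2 values weights the genes of a family equally. By that mean, Gst was lowest in replicate 4, at -0.119, beside -0.113 in replicate 3. Cyp was highest in replicate 2, at 0.187, and at -0.002 in replicate 1. Shares of reads are not corrected for transcript length, and no transcript lengths were used.

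**Figure D1:**
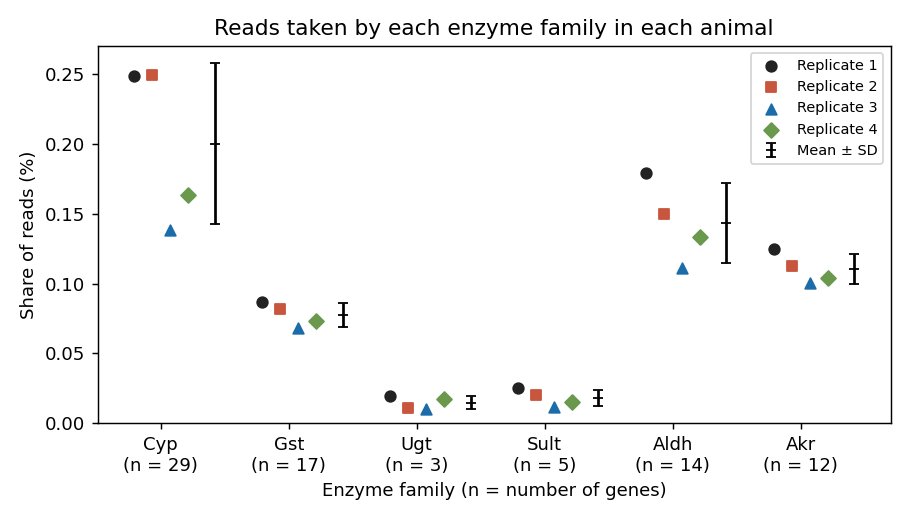
Share of reads (%, vertical axis) taken by each enzyme family (horizontal axis) in each of the 4 animals, one symbol per replicate, with the mean and SD as the bar to the right. Replicate 3 gives the lowest point in every family, and the ratio of highest to lowest is 2.17 for Sult and 1.24 for Akr.

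Enzyme genes differed between animals by more than the typical gene did. The SD of the log2 values over animals had a median of 0.32 for the 80 enzyme genes and 0.18 for all genes. Variation beyond counting error was found for 64 of the 80 by a chi-square test of the recovered reads (adjusted p under 0.05 by Benjamini-Hochberg), against 69.5% of all genes. Relative to genes of like level, limma's trend test called 0 of the 80 and 0% of all genes, and the smallest adjusted p among the 80 was 0.913. Over all genes limma's smallest adjusted p was 0.834. The trend and the spread around it were estimated from these same values, so limma's test could call hardly any gene. Its 0 calls therefore show no evenness. At an unadjusted p under 0.05 it marked 20 of the 80, or 25%, against 5.44% of all genes. A test on recovered reads with the dispersion trend held fixed called 24, or 30%, against 7.52% of all genes. The lowest number of reads for any of the 80 in any library was 21. A value of at least 1 log2 CPM in each library was reached by 76. The other 4 were Cyp11a1, Cyp27b1, Cyp2r1 and Gsta3.

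To describe which enzymes followed the tubular markers, the squared distance between a gene's centred profile and the proximal tubule profile was expressed as a percent of the latter's own squared spread. An identical gene has a distance of 0 and a flat gene 100%. A gene that hardly varies therefore cannot lie close, and enzyme genes varied more than all genes did (median SD 0.32 against 0.18). How far this difference in spread sets the shares below apart was not tested. Of the 80 enzyme genes, 14, or 17.5%, lay within 25%, against 3.12% of all genes. They were 6 of 29 Cyp (Cyp4a1, Cyp4f1, Cyp2d2, Cyp4a8, Cyp4a3 and Cyp2e1), 3 of 14 Aldh (Aldh6a1, Aldh7a1 and Aldh1l1), 2 of 5 Sult (Sult1b1 and Sult1c2a), and 1 gene each of Ugt, Akr and Gst, namely Ugt1a6, Akr1c1 and Gsta5. Within 50% were 25 of the 80, against 8.52% of all genes, and 45 were above 100%, farther than a flat gene, against 66.4% of all genes. For comparison, 14 of the 20 markers that define the profile lay within 25% of it. The mean profiles of the families lay at 23.6% for Sult, 40.2% for Aldh and 58.0% for Cyp. They lay at 61.0% for Akr, 68.1% for Gst and 77.7% for Ugt. Just inside the limit were Sult1c2a and Aldh1l1, at 21% and 21.2%, and just outside it Akr7a2 and Aldh8a1, at 27.3% and 30.9%. Of the 6 profiles compared, the proximal tubule profile was the nearest for 31 enzyme genes, or 38.8%, against 6.80% of all genes. Nearest does not mean close: 7 of the 31, Cyp27b1, Cyp26b1, Ugt2b35, Cyp11a1, Cyp4a2, Sult1c2 and Gsta1, were above 100%, as were 43 of the 902 genes nearest it among all genes. The podocyte profile was nearest for 5, or 6.25%, a share close to the 6.12% of all genes.

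The count within 25% exceeded the share of all genes only with replicate 3 included. Without it, 5 enzyme genes, or 6.25%, lay within 25% of the profile, against 6.62% of all genes, and only 3 of the 14 remained. The proximal tubule profile was then nearest for 29, or 36.25%, against 21.9% of all genes. Without replicate 1, 2 or 4 the number within 25% was 15, 20 and 23, against 4.25%, 6.58% and 4.73% of all genes. Without replicate 2, 16 were nearest the proximal tubule profile, against 3.80% of all genes. The full order of the 4 animals was a poor guide, because replicates 2 and 4 nearly tied in the markers. It was shared by 4 enzyme genes, against 5.47% of all genes, but by 15 with trimmed-mean scaling, against 6.49%. With only the highest and the lowest animal considered, a criterion chosen after the values were seen, 20 of 80, or 25%, matched, against 10.6% of all genes.

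**Figure D2:**
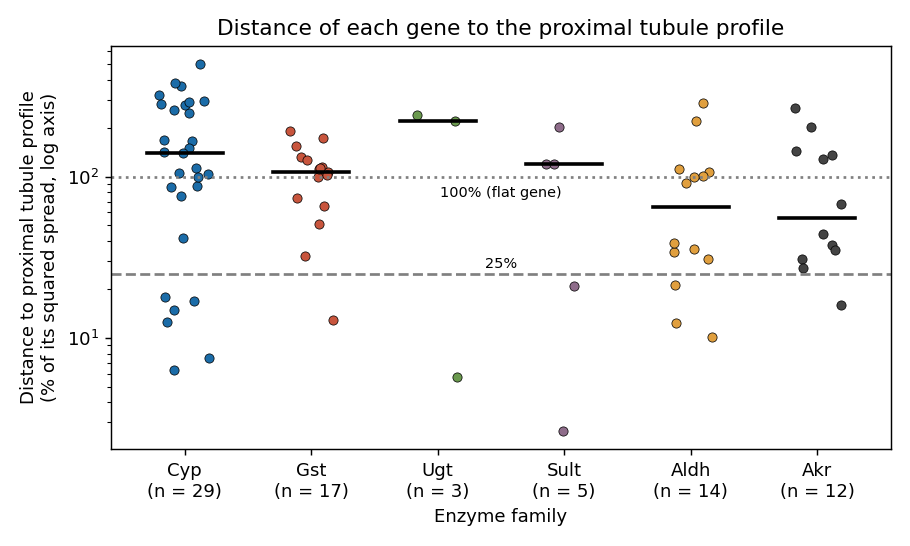
Distance of each enzyme gene's profile to the proximal tubule profile (percent of that profile's squared spread, log axis) by family, one point per gene, with the family median as a bar. Points under the dashed line at 25% follow the markers in pattern and size. Points near the dotted line at 100% may be flat, differ in pattern or range more widely than the markers, as Sult1c2 does at 120%. Under the dashed line lie 6 Cyp genes and 1 Gst gene.

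The closest enzyme genes belonged to different families, and the start regions of those with the smallest distance and a sequence in RefSeq are shown, with that of the flat gene Gstp1 for contrast. Each sequence runs 5′ to 3′ on the gene's strand, from 250 bases before to 50 after the annotated start, in the GRCr8 build. Capitals mark matches to the motifs searched on both strands, which here are GCGTG, the core of the AhR motif, read as its reverse complement where it lies on the other strand, and in Gstp1 also TGACNNNGC, the antioxidant response motif of Nrf2.
Sult1b1: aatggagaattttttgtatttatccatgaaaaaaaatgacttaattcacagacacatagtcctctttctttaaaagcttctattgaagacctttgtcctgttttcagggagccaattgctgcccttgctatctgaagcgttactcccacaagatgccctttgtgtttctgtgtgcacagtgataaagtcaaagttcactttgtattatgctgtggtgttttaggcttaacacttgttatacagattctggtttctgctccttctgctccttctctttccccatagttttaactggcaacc
Ugt1a6: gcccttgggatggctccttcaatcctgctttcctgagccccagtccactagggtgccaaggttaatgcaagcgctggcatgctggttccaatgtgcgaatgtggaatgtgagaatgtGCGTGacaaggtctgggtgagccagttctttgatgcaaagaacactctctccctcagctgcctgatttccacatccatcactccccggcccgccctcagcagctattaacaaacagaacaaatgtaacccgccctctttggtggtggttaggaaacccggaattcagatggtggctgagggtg
Cyp4f1: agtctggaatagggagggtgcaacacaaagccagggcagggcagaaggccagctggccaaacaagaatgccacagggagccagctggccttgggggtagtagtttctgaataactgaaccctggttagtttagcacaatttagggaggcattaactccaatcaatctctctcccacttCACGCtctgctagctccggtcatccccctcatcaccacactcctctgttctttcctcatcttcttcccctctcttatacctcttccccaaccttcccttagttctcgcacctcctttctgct
Gstp1: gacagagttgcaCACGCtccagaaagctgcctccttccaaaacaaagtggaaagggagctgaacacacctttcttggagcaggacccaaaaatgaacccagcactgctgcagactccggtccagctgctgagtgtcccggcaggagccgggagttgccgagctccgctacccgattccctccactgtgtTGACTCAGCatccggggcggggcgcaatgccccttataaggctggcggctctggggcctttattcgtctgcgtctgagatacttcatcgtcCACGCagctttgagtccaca
They lie at chr14:20771667-20771966 (Sult1b1, plus strand), chr9:96194768-96195067 (Ugt1a6, plus strand), chr7:12672504-12672803 (Cyp4f1, minus strand) and chr1:210769656-210769955 (Gstp1, minus strand). In Gstp1, TGACTCAGC begins 61 bases before the start. A promoter was matched by symbol for 69 of the 80 genes, 12 of them among the 14 close to the tubular profile. TGACNNNGC was found in 14 of the 69, or 20.3%, and in 13.1% of all 27457 genes with a promoter, and in 0 of the 12. The 14 were Akr1c15, Aldh16a1, Aldh1a2, Aldh9a1, Cyp26b1, Cyp2s1, Cyp4b1, Cyp4f37, Gsta1, Gsta2, Gsta3, Gstm5, Gstm7 and Gstp1. GCGTG was found in 27 of the 69, or 39.1%, against 32.4% of all genes, and in 3 of the 12. The Hnf4 motif CAAAGTCCA was in 0 of the 69 and in 0.444% of all promoters. These matches describe letters in a short window and no binding was measured. Symbols of alpha-class Gst genes differ between annotations, so their match by symbol is uncertain.

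Among the Cyp genes, the fatty acid hydroxylases of the Cyp4 group differed in pattern. Cyp4a and Cyp4f enzymes hydroxylate the end of fatty acids, arachidonic acid included. Cyp4a1, at 51, 48.5, 26.2 and 43.7 CPM in replicates 1 to 4, had a distance of 6.34%. Cyp4f1, at 59.1, 54.9, 27.9 and 48.6 CPM, had 7.53%. Cyp4a8, at 144, 148, 88.7 and 140 CPM, and Cyp4a3, at 85.2, 86.1, 54.0 and 87.8 CPM, had 15.0% and 16.8%. In these 4 genes replicate 3 was set low, and the other animals lay close together in Cyp4a3 and Cyp4a8. Cyp4a2, which took the most Cyp reads, did not share this pattern. It had 920.9, 1025, 463 and 408 CPM, low in replicate 4 as well as in replicate 3, and a distance of 166%. Cyp4a2 and Cyp4a3 are close copies, and how reads shared between them were counted is not given in the sources used here. Of the 11 Cyp4 genes, 4 were within 25%, against 3.12% of all genes, and 7 were above 100%, a share close to the 66.4% of all genes.

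The remaining Cyp4 genes were not highest where tubular markers were. Cyp4b1 had 11.9, 22.7, 21.3 and 19.0 CPM, lowest in replicate 1, the animal highest in tubular markers, and a distance of 319%. Cyp4f5, at 12.1, 18.2, 19.8 and 13.0 CPM, Cyp4f17, at 7.11, 12.1, 11.2 and 10.2 CPM, and Cyp4f37, at 4.16, 7.19, 7.72 and 4.30 CPM, were likewise lowest in replicate 1. Cyp4f6 had 26.9, 50.3, 26.4 and 37.0 CPM, highest in replicate 2. Cyp4v3, a fatty acid hydroxylase of broad occurrence, hardly differed, at 42.6, 43.8, 49.1 and 49.7 CPM.

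The Cyp2 enzymes metabolise drugs and, in part, arachidonic acid. Cyp2c23, the main arachidonic acid epoxygenase of rat kidney, had 668, 504, 235 and 363 CPM. Its animals were ordered like the tubular markers at both ends, but the 2.84-fold range was wider than that of the profile, and its distance was 41.9%. Cyp2e1, which oxidises ethanol and small solvents, had 80.7, 85.9, 41.5 and 70.1 CPM and a distance of 18.0%. Cyp2d2, a drug-oxidising enzyme, had 67.3, 55.6, 39.5 and 67.5 CPM and 12.5%. Both were lowest in replicate 3, and Cyp2e1 was highest in replicate 2. Cyp2r1, a vitamin D 25-hydroxylase, ranged over 3.86-fold at low level, from 1.60 CPM in replicate 3 to 6.15 CPM in replicate 1. Cyp2j4 had 8.96, 9.04, 14 and 10.3 CPM, highest in replicate 3. Cyp2j10 had 10.5, 7.19, 8.83 and 11.6 CPM and was nearest the podocyte profile. Cyp2u1, Cyp2t1 and Cyp2d4 each differed by at most 1.24-fold between animals.

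None of the 8 Cyp genes of sterol, vitamin D and retinoid metabolism, a group that here also holds Cyp20a1, was within 50% of the tubular profile, a count near the background, since 8.52% of all genes were. Cyp24a1, which inactivates vitamin D, had 22.7, 64.5, 41.1 and 24.0 CPM. It was highest in replicate 2 and had the greatest distance of the 80 genes, 498%. Cyp27b1, which makes the active hormone, had 2.54, 3.24, 1.40 and 7.45 CPM, highest in replicate 4 and lowest in replicate 3, a 5.32-fold range. Cyp26b1, which degrades retinoic acid, had 118, 103, 67.1 and 39.9 CPM, lowest in replicate 4. Cyp11a1, the side-chain cleavage enzyme of steroid synthesis, had 4.75, 6.76, 1.60 and 4.43 CPM. Cyp51, of cholesterol synthesis, was highest in replicate 4, at 47.9, 46.7, 44.1 and 68.7 CPM. Cyp7b1, an oxysterol hydroxylase, lay between 3.65 CPM in replicate 1 and 6.99 CPM in replicate 4. Cyp27a1, a sterol hydroxylase of mitochondria, stayed between 17.9 and 21.8 CPM. The fixed-trend test, which called 7.52% of all genes, called 3 of these 8, Cyp24a1 (adjusted p = 3.55e-11 by the fixed-trend test), Cyp26b1 and Cyp27b1. Limma's adjusted p, which could hardly fall low for any gene, was 0.913 for each. Cyp1a1 and Cyp1b1 were not analysed here.

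**Figure D3:**
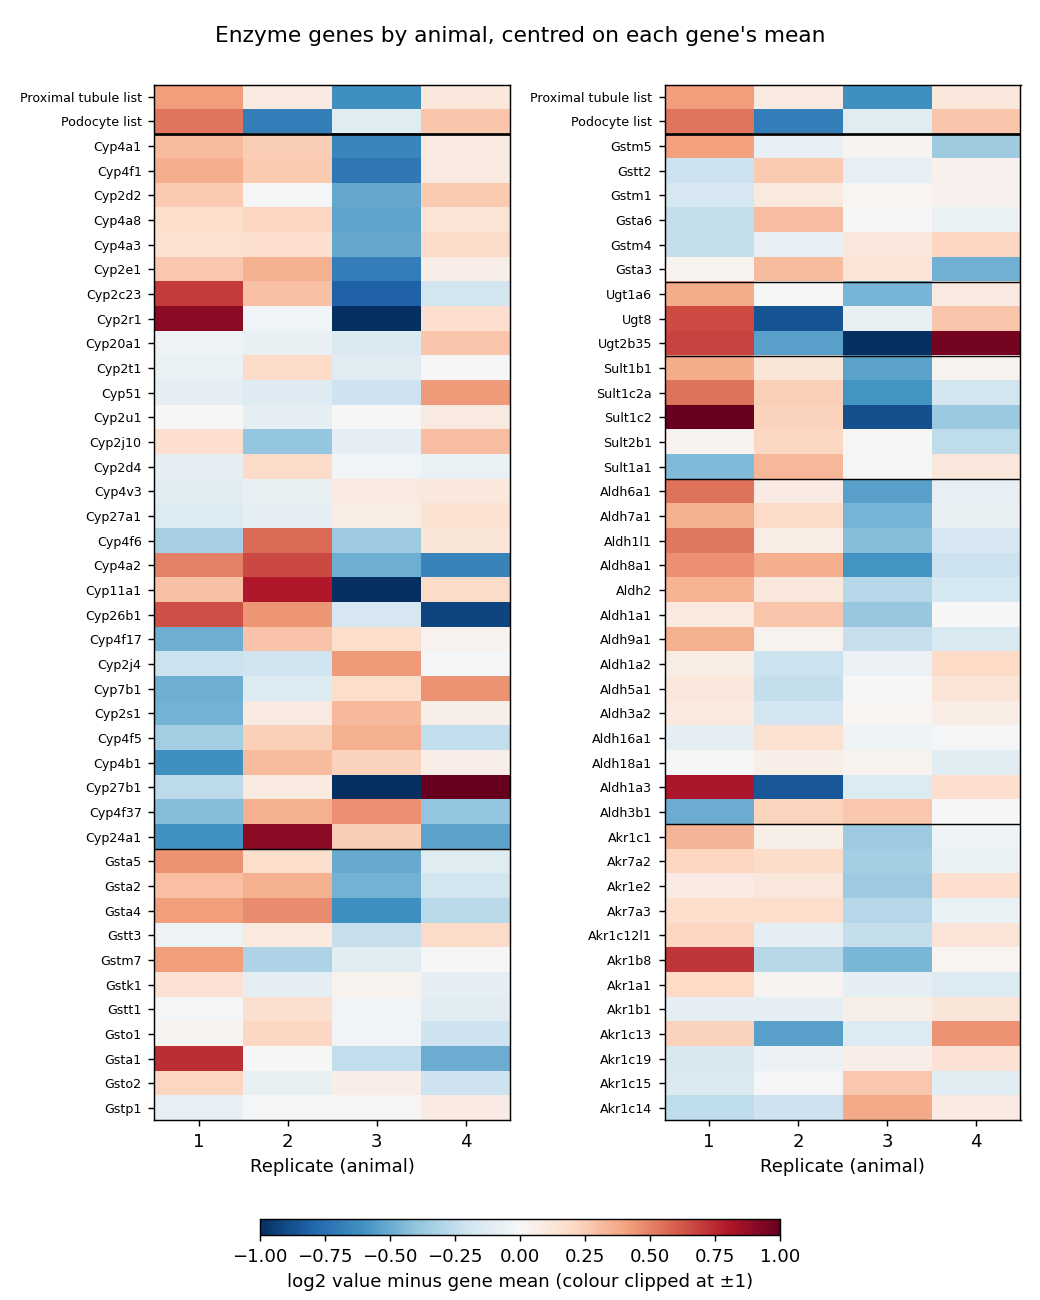
Log2 value of each of the 80 enzyme genes in each animal (columns are replicates 1 to 4) minus the gene's mean, red for above and blue for below, with the colour clipped at 1 to either side; genes are grouped by family and sorted by distance to the proximal tubule profile, shown at the top with the podocyte profile. The first genes of each family are blue in replicate 3 like the tubular markers, and Cyp24a1 at the end of the Cyp block is reddest in replicate 2.

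Aldehyde dehydrogenases oxidise reactive aldehydes and also serve amino acid breakdown. The closest to the tubular markers were 3 genes, chosen after their values were seen. Aldh6a1, of valine breakdown, had 366, 267, 172 and 237 CPM and a distance of 10.1%. Aldh7a1, of lysine breakdown, had 354, 316, 200.3 and 263 CPM and 12.3%. Aldh1l1, which oxidises formyltetrahydrofolate, had 42.6, 31.2, 21.9 and 26.3 CPM and 21.2%. Each was highest in replicate 1 and lowest in replicate 3. Aldh8a1, at 177, 166, 85.2 and 112 CPM, Aldh2, the mitochondrial enzyme of ethanol metabolism, at 247, 210.2, 159 and 172 CPM, and Aldh9a1, at 174, 139, 116 and 123 CPM, had the same highest and lowest animals. Their distances were 30.9%, 34.0% and 38.6%.

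The 3 retinal dehydrogenases of the Aldh1a group, which make retinoic acid, had different patterns. Aldh1a1 had 90.3, 102, 65.0 and 84.5 CPM, lowest in replicate 3, with a distance of 35.8%. Aldh1a3 had 99.5, 31.3, 51.4 and 63.5 CPM, lowest in replicate 2, like the podocyte markers but over a wider range, and its distance to the podocyte profile was 13.6%. Aldh1a2 had 38.2, 31.4, 34.8 and 41.7 CPM and differed by 1.33-fold. Flat genes of the family were Aldh18a1, of proline synthesis, with 7.97 to 8.98 CPM, Aldh16a1, with 77.7 to 92.8 CPM, and Aldh3a2, which oxidises fatty aldehydes, with 79.7 to 97.5 CPM. Aldh5a1, of GABA breakdown, ran from 12.3 to 15.9 CPM. Aldh3b1 had 6.82, 11.2, 11.6 and 9.61 CPM, lowest in replicate 1.

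Aldo-keto reductases reduce aldehydes and ketones, and some can reduce the side-chain ketone of doxorubicin. Akr1a1, an aldehyde reductase, had 817, 722, 666 and 645 CPM, a 1.27-fold range and a distance of 67.3%. Akr1b1, aldose reductase, was nearly even, at 72.6, 72.8, 80.4 and 83.9 CPM. Only Akr1c1 of the 12 was within 25%, against 3.12% of all genes, with 88.2, 72.4, 54.2 and 68.0 CPM and a distance of 16%. A further 5 were within 50%, where 8.52% of all genes lay, among them the aflatoxin aldehyde reductases Akr7a2, at 110, 108, 75.0 and 90.8 CPM, and Akr7a3, at 88.8, 88.7, 64.3 and 75.1 CPM. Their swings were in the direction of the tubular markers and smaller. Akr1b8 had 15.7, 7.87, 6.94 and 9.68 CPM, high in replicate 1, and was the only Akr gene of the 12 called by the fixed-trend test (adjusted p = 0.018), a share near the 7.52% of all genes. Limma's adjusted p for it was 0.931. The other Akr1c genes, close copies whose division of reads is uncertain, differed in pattern. Akr1c13 was nearest the podocyte profile, at 5.42, 3.18, 4.2 and 6.33 CPM, and Akr1c14 was highest in replicate 3, at 4.75, 4.90, 7.39 and 6 CPM. Akr1c15 and Akr1c19 differed by 1.34-fold and 1.24-fold, and Akr1c12l1 had 2.77 to 3.80 CPM.

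Glutathione S-transferases attach glutathione to reactive compounds. Of the 6 alpha-class genes, 4 were nearest the proximal tubule profile, against 6.80% of all genes. By distance, 1 of the 6 was within 25%, 2 were within 50% and 3 were above 100%, among them Gsta1, one of the 4, at 107%; the shares of all genes were 3.12%, 8.52% and 66.4%. Of the 11 genes of the other classes 0 were nearest it and 0 were within 50% of it, near the 6.80% and 8.52% of all genes. The difference between the classes was not tested. Gsta5 had 113, 93.3, 58.3 and 76.0 CPM and a distance of 12.9%. Gsta2, at 45.8, 47.4, 26.7 and 32.8 CPM, and Gsta4, at 37.8, 39.3, 18.5 and 23.5 CPM, were low in replicates 3 and 4, with distances of 32.4% and 50.6%. Gsta1 had 191, 115, 96.7 and 81.0 CPM, high in replicate 1 and lowest in replicate 4. Gsta6, at 12.3, 18.1, 14.6 and 13.9 CPM, and Gsta3, at 2.10, 2.56, 2.25 and 1.48 CPM, were highest in replicate 2. The alpha-class genes are close copies, and their division of reads is uncertain.

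Of the 11 genes of the other classes, 6 varied beyond counting error, against 69.5% of all genes, and the ranges ran from 1.12-fold in Gstp1 to 1.69-fold in Gstm5. Gstp1, the pi-class enzyme whose start region is shown above, had 172, 181, 184 and 193 CPM, a mean of 183 ± 8.68 (SD, n = 4) and a 1.12-fold range. It took the most Gst reads, 23.7%. Gstt3 had 117, 129, 103 and 138 CPM, Gstt2 had 31.6, 44.0, 34.7 and 37.8 CPM and Gstt1 had 24.9, 28.4, 24.8 and 23.5 CPM. Of the mu class, Gstm1 had 10.9, 13.1, 12.4 and 12.6 CPM and Gstm4 had 16.3, 18.2, 20.7 and 22.3 CPM. Gstm7, at 18.9, 11.4, 13.1 and 14.1 CPM, was nearest the podocyte profile, and Gstm5 had 2.33 to 3.94 CPM. The omega-class genes Gsto1, at 48.4 to 64.4 CPM, and Gsto2, at 2.39 to 3.21 CPM, and the mitochondrial Gstk1, at 9.15 to 10.8 CPM, had distances of 106%, 111% and 99.4%. The median SD of the log2 values was 0.18 for these 11 genes and 0.40 for the 6 alpha-class genes, beside 0.18 for all genes.

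Each of the 3 Ugt genes had its own pattern. Ugt1a6, which glucuronidates phenols and shares its last exons with the other Ugt1a transcripts, had 95, 73.5, 53.2 and 78.1 CPM. It lay at 5.71% from the tubular profile and had the animals in the same order. Ugt8, which makes galactosylceramide rather than handling drugs, had 63.4, 22.2, 38.1 and 48.9 CPM, lowest in replicate 2. Its distance was 222% to the tubular and 5.24% to the podocyte profile, the smallest podocyte distance of the 80. Ugt2b35, of the steroid- and drug-conjugating Ugt2b group, had 37.9, 16.3, 11.2 and 46.1 CPM. Replicates 1 and 4 were high and replicates 2 and 3 low, a 4.10-fold range. The 2 listed markers of the late (S3) proximal tubule summed to 25.1, 16.04, 10.7 and 24.5 CPM, also higher in replicates 1 and 4, and their part in the Ugt2b35 values was not tested. The fixed-trend test called all 3 genes, against 7.52% of all genes, with Ugt2b35 at an adjusted p of 2.52e-17. Limma's adjusted p was 0.913 for Ugt2b35 and Ugt8 and 0.92 for Ugt1a6.

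Among the sulfotransferases, Sult1b1, which sulfates phenols and thyroid hormones, had 11.5, 9.72, 6.16 and 9.15 CPM. At 2.66%, it was the closest of the 80 to the tubular profile. Sult1c2a had 171, 138, 77.7 and 104 CPM and a distance of 21.0%. Sult1c2, a close copy, had the same highest and lowest animals over a wider 3.74-fold range, at 56.7, 32.7, 15.1 and 21.5 CPM, and a distance of 120%. Sult1a1, a phenol sulfotransferase of many tissues, was lowest in replicate 1, at 10.3, 17.6, 13.8 and 15.1 CPM. Sult2b1, which sulfates cholesterol, had 3.12 to 4.29 CPM.

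**Figure D4:**
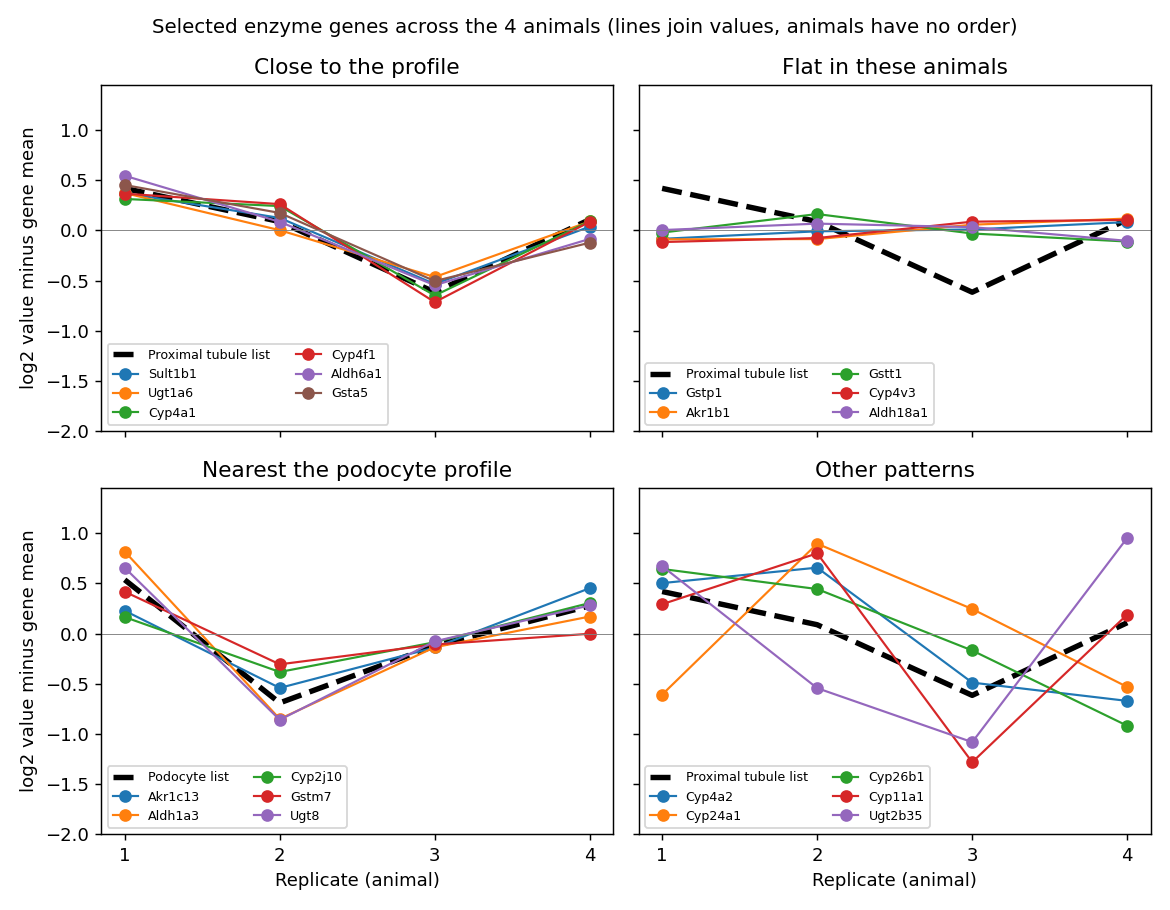
Log2 value minus the gene's mean (vertical axis) in each animal (horizontal axis) for selected enzyme genes, one colour per gene, with a cell type profile as the dashed line: the podocyte profile in the lower left panel and the proximal tubule profile in the other panels. Sult1b1, Ugt1a6 and Cyp4a1 run close to the tubular profile, Gstp1 and Akr1b1 stay near 0, Ugt8 and Aldh1a3 are lowest in replicate 2 like the podocyte profile but range more widely than it, and Cyp24a1 and Ugt2b35 are far from both of these profiles.

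Partner genes of the same pathways were read from a list. Among 13 electron donors and cofactor suppliers, 0 were within 25% of the tubular profile, near the 3.12% of all genes, and 5 within 50%, against 8.52% of all genes. Por, the electron donor of microsomal Cyp enzymes, had 7.36, 7.13, 7.03 and 7.07 log2 CPM. Papss2, which makes the sulfate donor, had 14.7, 14.2, 10.3 and 13.4 CPM and a distance of 25.1%. The regulators Nfe2l2, which encodes Nrf2, Keap1 and Ahr were nearly even, with SDs of 0.04, 0.03 and 0.09 on the log2 scale. Of 16 other detoxifying enzymes, 2 were within 25%, against 3.12% of all genes. They were Mgst3, a membrane-bound glutathione transferase, at 111, 79.1, 58.5 and 90.6 CPM and 6.50%, and the epoxide hydrolase Ephx2, at 48.2, 42.9, 31.6 and 37.2 CPM and 24.6%. Fmo1, a flavin monooxygenase, had 122, 98.8, 54.8 and 71.7 CPM and 25.6%. Whether tubular fragments set any of these patterns was not tested.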

How the data were processed

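The table deposited by the authors gives a log2 value for each of 13265 rat genes in each sample. The submitters' processing notes name HISAT2, featureCounts, Subread, limma and the build Rnor_6.0, with no role or order; the filter on low genes and the use of strand are not given in the sources used here. In each column, 2 to the power of the deposited log2 value was a whole number of reads plus 0.5, times a constant, for 100% of the values (tolerance 0.01 reads), so reads were recovered and values are log2 CPM over the listed genes. A total of 4 rows with displaced values were left out, and 116 rows that share a symbol were not used under it in marker lists.

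Column names equal sample titles, and the samples form 1 group of 4, so no contrast was tested. Excess variance was tested over all 13261 genes with limma 3.58.1 (R 4.3.3; intercept-only fit, abundance trend, F test), counting noise with a chi-square test, and, as an alternative, a Pearson statistic at a dispersion trend fixed in 40 bins, all adjusted by Benjamini-Hochberg at 0.05. Distances to marker profiles were computed in Python 3.11.15 and carry no test, since 4 samples are too few for a correlation. Alternatives were other scalings, log2(CPM + 1), a filter at 1 log2 CPM, other reference lists and leaving out each replicate. Scripts were checked on simulated data. Genes named by rule were, per family, the 3 highest, the lowest, the widest in range, the closest and the farthest, plus fixed genes by role; others were added after their values were seen. Members, lists and tests were chosen with earlier results of these data known. Promoters are RefSeq's, from GRCr8, matched by symbol. Values of 1 partner gene and 1 motif are not reported here.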

Additional observations from a re-analysis of the deposited data

Results flagged for a closer look

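Of 87 results examined (80 enzyme genes, 6 families and their sum), 3 had 1 animal set apart from the other 3, by the gap to the nearest animal over the whole range on the log2 scale. Chance alone sets about 1 in 20 apart, and 3 of 87 is fewer than that. In all 3 it was replicate 3, on the low side. All are nearest the proximal tubule profile, a trait that follows in part from the low replicate 3. The gap over the range was 0.939 for Cyp4a3, 0.888 for Cyp4a8 and 0.845 for Akr1e2, which had 16.7, 17.1, 12.2 and 17.7 CPM in replicates 1 to 4. Tubular markers were also lowest in replicate 3, and their part in these values was not tested.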

How the results depend on the processing

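Limma's trend called 0 of the 80 genes under each alternative run with it, and the fixed dispersion trend called 24. Limma's trend was estimated anew from the same values each time, so its repeated 0 shows no stability. The number within 25% of the proximal tubule profile was 14; it was 25 at a limit of 50% and ran from 5 to 23 when each replicate was left out in turn. By family, these fits gave 0 to 8 for Cyp, 2 to 4 for Gst, 1 to 2 for Ugt, 1 to 2 for Sult, 0 to 6 for Aldh and 1 to 2 for Akr. At 50% the numbers were 2 for Gst, 7 for Aldh and 6 for Akr, and with the early proximal tubule list Sult had 1. The number nearest the proximal tubule profile, 31, ran from 16 to 31 without a replicate. The number with the full order of animals was 4, against 5.47% of all genes. It was 15 with trimmed-mean factors, 13 without mitochondrial genes in the total and 16 with the list median, against 6.49%, 5.25% and 5.10%. For the highest and lowest animal only it was 20, against 10.6%. Without replicate 1, 2, 3 or 4, where fewer animals are ordered, it was 12, 30, 8 and 27. The shares of all genes were then 12.5%, 22.6%, 22.3% and 14.8%, so the 8 of 80 without replicate 3 fell below that share. The mean Akr share was 0.122% without mitochondrial genes in the total, a scaling that moved the median gene by 0.11 to 0.20 (log2) in the 4 samples. The late proximal tubule profile was not used as a reference, since 2 of its genes were listed and the minimum set was 3. Of 385 gene levels recomputed, 12 moved by more than the SD. Leaving out a replicate cannot move a mean of 4 by more than its SD, so such agreement shows no stability. The cause of these shifts was not tested. No paired analysis was possible because the samples form 1 group.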
